A study of Homo sapiens with 6 samples.

Results

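The genes described here are the receptors, adaptors and secreted binding proteins of the insulin-like growth factor (IGF) system: the receptor genes IGF1R and INSR, the adaptor genes IRS1 and IRS2, and the binding protein genes IGFBP2, IGFBP3, IGFBP4, IGFBP5, IGFBP6 and IGFBP7. They were taken by symbol from the deposited expression table, which held all 10 among its 20356 genes. The RNA came from H1975, a human line of lung adenocarcinoma with mutant EGFR: 3 libraries were of parental cells, cultured under normal conditions, and 3 of H1975 OR, its osimertinib-resistant derivative. H1975 OR was kept with the EGFR inhibitor osimertinib at 1 µM. Both cultures were grown in RPMI-1640 with serum, and the series design calls the libraries of each group biological replicates. H1975 OR is the only resistant line, and resistance and the presence of the drug cannot be told apart in this design. The p-values below therefore measure differences against the scatter of replicates from 1 line and 1 derivative.

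IGF1R and INSR encode receptor tyrosine kinases at the cell surface that bind the IGFs and insulin and can form hybrids with each other. The activated receptors phosphorylate the adaptors IRS1 and IRS2, which recruit phosphoinositide 3-kinase (PI3K) and so feed AKT and mTOR. The IGFBPs are secreted proteins that hold IGFs outside the cell and can limit or prolong their action, and IGFBP7 is a more distant relative with weak affinity for IGFs. In EGFR-mutant lung cancer, signalling from IGF1R through the IRS adaptors is known as a route that can keep PI3K active when EGFR is inhibited.

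Promoter sequences show what the genes with opposite changes have upstream of their start sites. RefSeq windows on GRCh38.p14 were matched by symbol for 9 of the 10 genes, and IGFBP7 had no entry. The 250 bases before the start site are printed 5′ to 3′ on the gene's strand for both adaptors and for INSR, because IRS1 fell while IRS2 and INSR rose, and for IGFBP4 and IGFBP6, which both fell and hold other motifs. Capitals mark matches, on either strand, to GGGCGG (the GC box of SP1-type factors), TATAAA (the TATA box), CAGGTG (the E-box of ZEB and SNAI repressors) and GTAAACA (the FOXO core). Where capitals run on, matches overlap or adjoin. The windows are chr2:226799821-226800070 (minus strand) for IRS1, chr13:109786584-109786833 (minus) for IRS2, chr19:7294415-7294664 (minus) for INSR, chr17:40443200-40443449 (plus) for IGFBP4 and chr12:53097417-53097666 (plus) for IGFBP6.
IRS1: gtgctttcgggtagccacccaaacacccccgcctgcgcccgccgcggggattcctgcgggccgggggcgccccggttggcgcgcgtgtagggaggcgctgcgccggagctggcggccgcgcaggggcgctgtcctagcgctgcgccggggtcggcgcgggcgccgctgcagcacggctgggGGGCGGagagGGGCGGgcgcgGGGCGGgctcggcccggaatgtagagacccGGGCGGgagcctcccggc
IRS2: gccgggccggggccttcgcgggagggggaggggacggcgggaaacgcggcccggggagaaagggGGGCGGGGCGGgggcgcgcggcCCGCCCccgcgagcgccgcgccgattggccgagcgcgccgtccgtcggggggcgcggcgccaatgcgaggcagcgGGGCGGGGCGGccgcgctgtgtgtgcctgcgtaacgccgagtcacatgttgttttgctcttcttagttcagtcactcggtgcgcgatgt
INSR: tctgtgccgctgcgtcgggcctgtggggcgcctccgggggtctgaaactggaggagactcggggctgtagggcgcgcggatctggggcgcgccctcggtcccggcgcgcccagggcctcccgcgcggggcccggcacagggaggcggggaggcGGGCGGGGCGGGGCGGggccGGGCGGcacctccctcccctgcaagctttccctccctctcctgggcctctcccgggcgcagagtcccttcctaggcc
IGFBP4: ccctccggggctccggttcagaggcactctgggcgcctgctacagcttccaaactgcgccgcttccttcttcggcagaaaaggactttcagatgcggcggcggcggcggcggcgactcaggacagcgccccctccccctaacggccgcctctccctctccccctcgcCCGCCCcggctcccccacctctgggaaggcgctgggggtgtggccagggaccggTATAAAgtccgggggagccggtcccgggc
IGFBP6: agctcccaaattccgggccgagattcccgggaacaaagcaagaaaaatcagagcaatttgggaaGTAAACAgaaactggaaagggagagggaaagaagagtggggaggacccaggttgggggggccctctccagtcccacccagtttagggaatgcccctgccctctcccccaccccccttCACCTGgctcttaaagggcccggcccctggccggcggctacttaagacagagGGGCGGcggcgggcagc

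GC boxes stood in the promoters of 8 of the 9 matched genes, all but IGFBP5, against 42.6% of 35116 promoter windows of the same length. IRS1 held 4 matches and INSR 4, and IRS2 held 5, so this motif was present in genes of either direction. The GC content of these 3 windows was 80.8%, 78.4% and 76.4%, against a median of 58.0% over all windows. IGF1R was similar, at 81.2%, with 2 GC boxes. TATAAA was found in IGFBP4 alone among these genes, 29 bases before the start site, and in 10.7% of all windows. CAGGTG or its reverse complement was found in windows of IGFBP2, IGFBP3 and IGFBP6, and in 17.5% of all windows. GTAAACA was found in IGFBP6 alone, against 2.98% of windows. The AP-1 element TGANTCA was in the window of 0 of the 9 genes and in 6.57% of all windows. IGFBP2 has 3 windows in the table, and the E-box stood in 1 of them. The counts above are of genes with a match in any of their windows, 11 for the 9 genes, while the shares are of single windows. These matches are letters in a window and were not tested for binding.

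Expression was given as FPKM, fragments scaled to transcript length and library size, a unit that allows levels of different genes to be compared. Depth in reads is unknown. Coverage divided by FPKM gave an estimated 9.72 to 14.7 gigabases of mapped sequence per library, and 11410 to 11555 genes reached 1 FPKM. The estimate is the commonest ratio, which 10.8% to 11.6% of the genes compared in a library had. A gene was tested with limma on log2(FPKM + 1) if its mean reached 1 FPKM in parental or in resistant cells. Changes below are resistant minus parental on that scale, where changes of low genes come out too small and depend on the added constant. With 5 in place of 1, the changes of IGFBP2, IGFBP4, IRS1, IRS2, INSR and IGF1R were smaller by over 1.5 times, in the same direction and past the threshold. Where 3 values are given for a group, they are those of replicates 1 to 3 in order. Adjusted p-values come from limma, with Benjamini-Hochberg adjustment over all 12107 genes tested, and a gene passed below 0.05. The cells kept some but not all epithelial markers. Of 8 tested markers of epithelium and lung adenocarcinoma, 7 were lower in resistant cells and 0 were higher. Among all tested genes, 38.1% were lower and 39.9% higher. In parental and resistant cells EPCAM was at 211 and 1.02 FPKM and KRT8 at 508 and 384 FPKM. NKX2-1 was at 26.7 FPKM in parental cells and listed at 0 in every resistant library. MUC1 did not pass, at 12.5 and 13.6 FPKM.

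Of the 10 genes, 9 were tested, 8 passed, 4 higher and 4 lower in resistant cells, and IGFBP5 was too low to be tested. Passing was the rule across the genome: 78.0% of all tested genes passed, 39.9% higher and 38.1% lower, so the count of 8 in 9 is near the background. Changes of 1 or more (log2) that passed were seen in 5 of the 9, against 19.3% of all tested genes: 2 were rises, against 9.95%, and 3 were falls, against 9.39%. Of these falls, IGFBP2 and IGFBP4 averaged 0.432 and 0.483 FPKM in resistant cells and were tested through their parental level alone. The median change of the 9 was -0.50, with 0.01 over all tested genes. Its sign depended on the filter. With a mean of at least 1 FPKM needed in both groups, the median of the 7 genes left was 0.45. The resistant libraries lay wholly above the parental ones in 4 of the 9 and wholly below in 5, as they did in 40.8% and 39.0% of all tested genes, 79.8% together. The size of the changes ranged from IGF1R, whose change was larger than that of 50.2% of tested genes, to IGFBP2, whose change was larger than that of 99.0%.

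**Figure D1:**
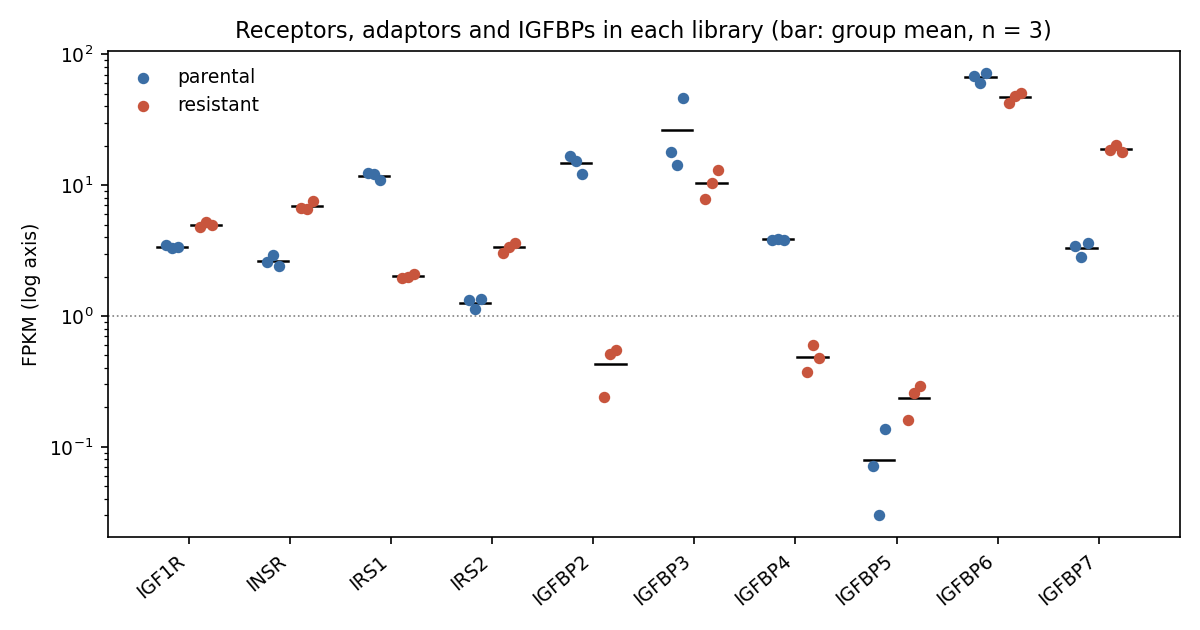
FPKM on a log axis for the 10 genes in each of the 6 libraries, blue for parental and red for resistant, with a bar at each group mean (n = 3) and a dotted line at 1 FPKM, the level needed for testing. IRS1 and IRS2 change places, IGFBP2 and IGFBP4 drop below the line, IGFBP7 rises, and 1 parental library stands high for IGFBP3.

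Both receptor genes rose, INSR more than IGF1R. IGF1R, the main receptor of IGF1 (GRCh37 chr15:99192200-99507759), measured 3.47, 3.28 and 3.38 FPKM across the parental libraries, and 4.76, 5.21 and 4.99 FPKM across the resistant ones. The resistant libraries all lay above the parental ones, by a small margin: the mean went from 3.38 ± 0.0906 to 4.99 ± 0.229 FPKM (SD, n = 3 per group), a ratio of 1.48, and the change was 0.45 ± 0.0662 (SE, adjusted p = 4.3e-05). INSR, the insulin receptor gene (chr19:7112266-7294045), measured 2.58, 2.92 and 2.41 FPKM across the parental libraries, and 6.74, 6.61 and 7.59 FPKM across the resistant ones. No resistant library came near the parental range. The mean of INSR rose 2.64-fold, from 2.64 ± 0.261 to 6.98 ± 0.531 FPKM, with a change of 1.13 ± 0.0778 (adjusted p = 3.5e-08). In parental cells IGF1R was the more abundant receptor message in each library, and in resistant cells INSR was. INSR made up 41.6% to 47.1% of the summed FPKM of both receptors in parental libraries and 55.9% to 60.3% in resistant ones. The summed level rose from 6.02 ± 0.208 to 12.0 ± 0.553 FPKM.

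The adaptors moved in opposite directions. IRS1 (chr2:227596033-227664475), whose promoter is printed above, measured 12.3, 12.1 and 10.9 FPKM across the parental libraries, and 1.95, 1.98 and 2.10 FPKM across the resistant ones. It fell 5.84-fold, from 11.8 ± 0.790 to 2.01 ± 0.0812 FPKM, with a change of -2.08 ± 0.0692 (adjusted p = 4.4e-11). The spread within either group was small beside this gap. IRS2 (chr13:110406184-110438915), which takes the same place below the receptors, measured 1.31, 1.12 and 1.35 FPKM across the parental libraries, and 3.05, 3.38 and 3.62 FPKM across the resistant ones. It rose 2.66-fold, from 1.26 ± 0.122 to 3.35 ± 0.283 FPKM, with a change of 0.94 ± 0.0779 (adjusted p = 2.0e-07). The order of the adaptors was thus reversed in all libraries. In parental replicates 1 to 3 the level of IRS1 was 9.39, 10.8 and 8.06 times that of IRS2, and in resistant replicates 1 to 3 it was 0.639, 0.587 and 0.582 times. IRS1 made up 90.3% ± 1.27 of the summed adaptor FPKM in parental cells and 37.6% ± 1.22 in resistant cells (SD, n = 3). The rise of IRS2 did not make up for the fall of IRS1 in this sum, which went from 13.0 ± 0.741 to 5.36 ± 0.359 FPKM. The third family member in the pathway lists, IRS4, was under 1 FPKM in every library.

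**Figure D2:**
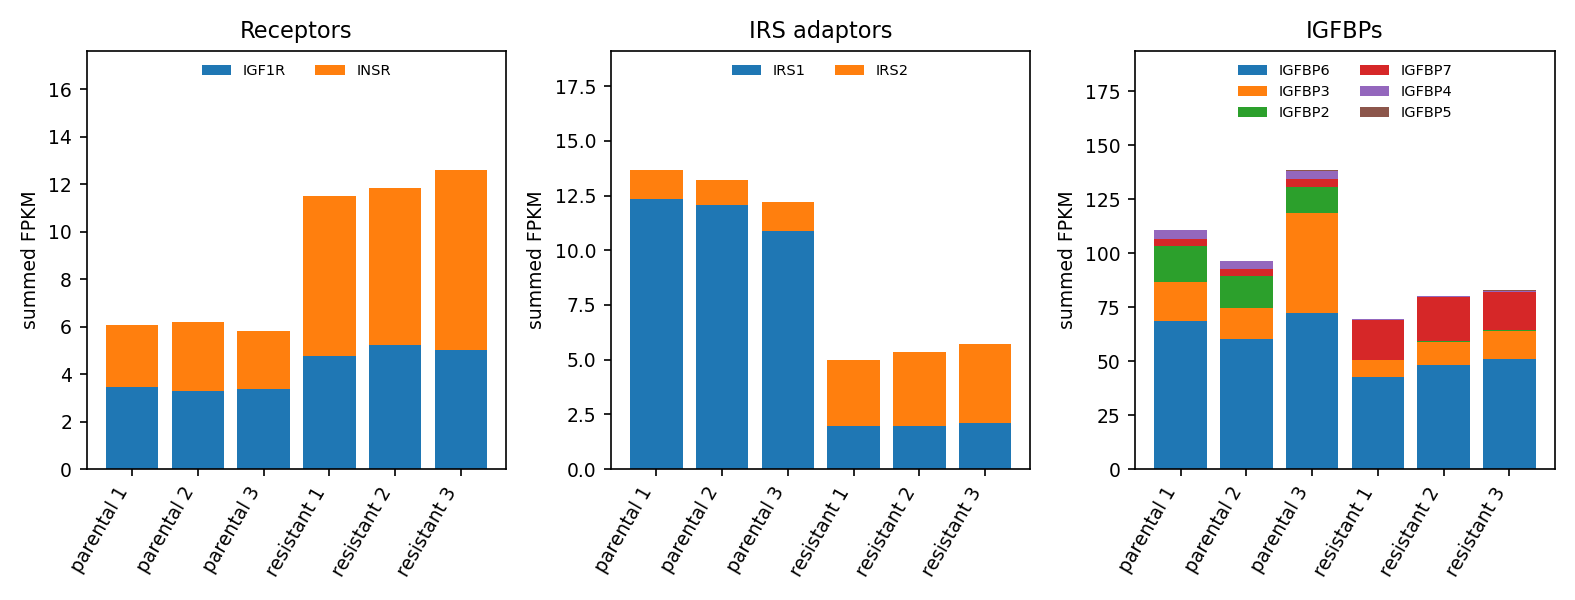
Stacked bars of FPKM in each library for the receptors, the IRS adaptors and the IGFBPs, each panel with its own axis from 0. The receptor sum is higher and the adaptor sum lower in the 3 resistant libraries. There IRS2 takes the larger part of the adaptor bars, and IGFBP7 the largest part of the IGFBP bars after IGFBP6.

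Among the binding proteins, IGFBP2 and IGFBP4 fell the most. IGFBP2 (chr2:217497551-217529159), a carrier of IGFs that tumours often secrete, measured 16.6, 15.2 and 12.1 FPKM across the parental libraries, and 0.240, 0.511 and 0.546 FPKM across the resistant ones. All resistant libraries were below 1 FPKM, where the estimated mean depth per base of this gene was 2.55 to 6.26, against 135 to 245 in parental libraries. The mean fell 33.9-fold, from 14.7 ± 2.31 to 0.432 ± 0.167 FPKM, with a change of -3.45 ± 0.120 (adjusted p = 1.1e-09), and 124 of the tested genes, itself included, changed by as much or more in either direction. IGFBP4 (chr17:38599702-38613983), which inhibits IGF action until a protease cuts it, measured 3.82, 3.89 and 3.82 FPKM across the parental libraries, and 0.371, 0.600 and 0.477 FPKM across the resistant ones. Its parental values were nearly level, and the resistant ones were all far below them. IGFBP4 fell 7.96-fold, from 3.84 ± 0.0394 to 0.483 ± 0.115 FPKM, with a change of -1.71 ± 0.0760 (adjusted p = 6.1e-10).

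IGFBP7 rose as those fell. IGFBP7 (chr4:57896939-57976551), also known as a matrix-associated protein of vessels and stroma, measured 3.44, 2.83 and 3.62 FPKM across the parental libraries, and 18.5, 20.2 and 17.8 FPKM across the resistant ones. The lowest resistant library was far above the highest parental one. IGFBP7 rose 5.72-fold, from 3.29 ± 0.415 to 18.8 ± 1.22 FPKM, with a change of 2.21 ± 0.0804 (adjusted p = 9.9e-11). The last 396 bases of IGFBP7 overlap POLR2B, an RNA polymerase II subunit gene on the opposite strand, and the sources used here do not say whether counting used strand. POLR2B was at 38.4 to 43.0 FPKM in all libraries and its change of 0.05 did not pass. The antisense gene IGFBP7-AS1 was at most 0.0171 FPKM.

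IGFBP6 remained the most abundant binding protein message in both groups. IGFBP6 (chr12:53491220-53496129), which prefers IGF2 over IGF1, measured 68.8, 60.2 and 72.2 FPKM across the parental libraries, and 42.5, 48.5 and 50.8 FPKM across the resistant ones. The groups did not overlap, but the step was modest: 67.1 ± 6.17 to 47.3 ± 4.27 FPKM, 1.42-fold lower, with a change of -0.50 ± 0.0835 (adjusted p = 0.00015). This is close to the median absolute change of all tested genes, 0.45.

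IGFBP3 did not pass. IGFBP3 (chr7:45951949-45961473), the main carrier of IGFs in blood, measured 18.0, 14.2 and 46.6 FPKM across the parental libraries, and 7.80, 10.4 and 13.0 FPKM across the resistant ones. Parental replicate 3 was far above the other parental libraries, and every resistant library was below the lowest parental one. The means were 26.3 ± 17.7 and 10.4 ± 2.59 FPKM, and the difference was -1.10 ± 0.527 with a 95% interval from -2.53 to 0.34 (adjusted p = 0.12). Without parental replicate 3 the difference was -0.60, which did not pass either (adjusted p = 0.053). IGFBP5 (chr2:217536828-217560248), which binds matrix and bone, was low throughout and measured 0.0712, 0.0300 and 0.137 FPKM across the parental libraries, and 0.160, 0.258 and 0.292 FPKM across the resistant ones. Its estimated mean depth per base was at most 3.34, so no fold is given.

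**Figure D3:**
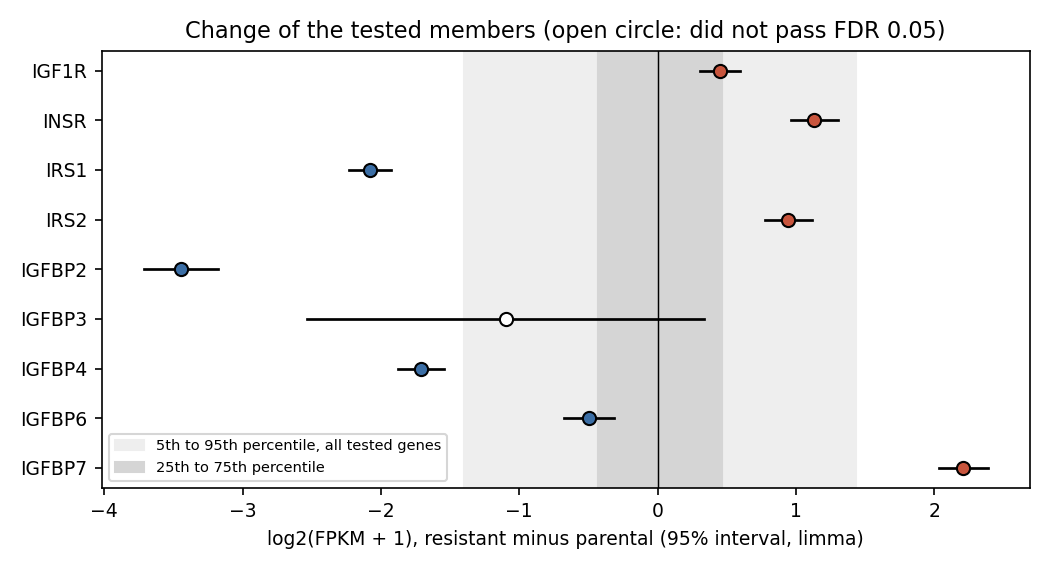
Change on the log2(FPKM + 1) scale, resistant minus parental, for the 9 tested genes, as points with 95% intervals from limma. Filled points passed, the open point of IGFBP3 did not, and grey bands span the 25th to 75th and the 5th to 95th percentiles of all 12107 tested genes. IGFBP2, IGFBP4, IRS1 and IGFBP7 lie outside both bands.

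Per length, the summed IGFBP level was 110.7, 96.4 and 138 FPKM in parental replicates 1 to 3 and 69.6, 80.4 and 82.9 FPKM in the resistant ones. Its make-up changed as well. IGFBP6 gave 58.9% ± 5.87 of the sum in parental and 60.9% ± 0.534 in resistant cells (SD, n = 3). IGFBP2 went from 13.2% ± 3.86 to 0.546% ± 0.175 of it, and IGFBP7 from 2.88% ± 0.250 to 24.4% ± 2.62. In parental cells the order of levels was IGFBP6, IGFBP3, IGFBP2, IRS1, IGFBP4, IGF1R, IGFBP7, INSR, IRS2 and IGFBP5. Neighbours in that order whose library values overlapped were IGFBP3 with IGFBP2, IGFBP2 with IRS1, IGF1R with IGFBP7, and IGFBP7 with INSR. In resistant cells it was IGFBP6, IGFBP7, IGFBP3, INSR, IGF1R, IRS2, IRS1, IGFBP4, IGFBP2 and IGFBP5, and only IGFBP4 with IGFBP2 and IGFBP2 with IGFBP5 overlapped.

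IGFBP7 and several other IGFBPs are also made by stromal and endothelial cells, so markers of those cells were read beside them. Among 10 fibroblast markers, 2 passed and both rose, COL1A1 (2.45 to 15.8 FPKM) and PDGFRB (0.0444 to 3.94 FPKM). The other 8 were under 1 FPKM in every library, DCN was at 0 in each, and the list summed to 2.44 to 2.97 FPKM in parental and 18.1 to 22.0 FPKM in resistant libraries. Of 6 endothelial markers in the table, CDH5 passed, from 0.503 to 1.06 FPKM, the other 5 were under 1 FPKM throughout with EMCN at 0, and the sums were 0.679 to 0.851 and 1.19 to 1.53 FPKM. Of 7 leukocyte markers, CD14 rose (2.67 to 26.8 FPKM) and CSF1R fell (4.54 to 0.373 FPKM), the other 5 were under 1 FPKM in all libraries, CD3E was at 0, and the sums were 7.77 to 8.53 and 25.2 to 31.4 FPKM. PDGFRB and CDH5 averaged 1 FPKM or more only in resistant cells, and CSF1R only in parental cells, so the filter favoured the direction each showed. Among all tested genes, 39.9% passed as higher and 38.1% as lower. The part of these markers in the changes of the IGFBPs was not tested. In bulk RNA, fewer cells of a type and less RNA per cell cannot be told apart.

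IGFBP2 and IGFBP5 lie next to each other, with 7.67 kb between their ends on chromosome 2 in GRCh37, and only IGFBP2 was expressed at a level that could be tested. Tested genes within 1000 kb of each gene are set here beside the shares over all tested genes, 39.9% higher and 38.1% lower. Near the genes that rose, 24 of 39 were higher and 9 lower for INSR, 4 of 6 higher and 1 lower for IGF1R, 2 of 4 higher and 1 lower for IRS2, and 2 of 9 higher and 2 lower for IGFBP7. Near the genes that fell, 18 of 27 were lower and 6 higher for IGFBP4, 4 of 6 lower and 1 higher for IGFBP2, 12 of 32 lower and 12 higher for IGFBP6, and 1 of 4 lower and 1 higher for IRS1. Both tested neighbours of IGFBP3, TBRG4 (-0.96) and CCM2 (-1.39), fell. Whether neighbours shared the direction of a gene more often than other genes did was not tested.

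The genes with the most similar levels were found by Euclidean distance on the log2(FPKM + 1) scale over the 6 libraries, for the largest rise and the largest fall. Nearest to IGFBP7 were BTN3A1 (distance 0.25), FYN (0.26) and ITGB3 (0.26), an integrin subunit gene, at 3.31, 3.13 and 3.48 FPKM in parental and 17.8, 19.9 and 18.2 FPKM in resistant cells. Nearest to IGFBP2 were RHOD (0.44), KRTCAP3 (0.53) and MYO6 (0.54), at 16.4, 14.3 and 12.5 FPKM in parental and 0.496, 0.195 and 0.307 FPKM in resistant cells.

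Messages for the ligands were below 1 FPKM in every library. IGF1 was listed at 0 in 5 of 6 libraries and at 0.00945 FPKM in resistant replicate 2. IGF2 measured 0.193, 0.202 and 0.217 FPKM across the parental libraries, and 0.222, 0.382 and 0.182 FPKM across the resistant ones, which overlapped. INSL3, a related hormone that acts on another receptor, was the highest of the ligand genes, with 0.461, 0.274 and 0.423 FPKM in parental and 0.582, 0.688 and 0.778 FPKM in resistant libraries, which did not overlap, and was too low to be tested. INS, INSL4 and the binding protein gene IGFBP1 were listed at 0 in every library. All 3 tested genes in the list of ligands and other family receptors and binding proteins, out of 12, rose, against 39.9% of all tested genes. IGF2R, the receptor that clears IGF2 and carries mannose-6-phosphate-tagged enzymes to lysosomes, measured 22.1, 22.7 and 22.1 FPKM across the parental libraries, and 52.5, 55.4 and 54.2 FPKM across the resistant ones, with no overlap (1.24 ± 0.0571, adjusted p = 8.5e-10). KAZALD1, an IGFBP-related secreted protein gene, rose from 6.38 ± 0.625 to 23.0 ± 1.69 FPKM (1.70), and TMEM219, which encodes a reported receptor of IGFBP3, from 16.6 ± 0.232 to 35.8 ± 1.90 FPKM (1.06).

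Genes that act on the IGFBPs after secretion are proteases and the inhibitors of those proteases. Of 7 tested proteases and inhibitors 4 rose, 1 fell and 2 did not pass, with a median of 1.39. Thus 71.4% passed, against 78.0% of all tested genes, of which 39.9% were higher and 38.1% lower. The median of 1.39 is the change of PAPPA, which averaged 1 FPKM or more only in resistant cells. The 3 genes too low to be tested went both ways. ADAM12 (0.730 to 0.0884 FPKM) and ADAM28 (0.287 to 0.0519 FPKM) were lower in resistant cells, and PAPPA2 (0 to 0.183 FPKM) was higher. PAPPA, the protease of IGFBP4, measured 0.0151, 0.0461 and 0.0280 FPKM across the parental libraries, and 1.65, 1.77 and 1.65 FPKM across the resistant ones, a low level in either group (1.39 ± 0.0673, adjusted p = 1.4e-09). Its inhibitors, the stanniocalcins, rose as well. STC2 measured 10.7, 10.6 and 12.4 FPKM across the parental libraries, and 63.6, 62.3 and 68.3 FPKM across the resistant ones (2.43 ± 0.0714, adjusted p = 1.4e-11), and STC1 rose from 7.40 ± 1.23 to 23.4 ± 1.29 FPKM (1.55). HTRA1, a secreted serine protease that can cut IGFBP5, measured 3.93, 3.72 and 3.49 FPKM across the parental libraries, and 37.5, 56.3 and 47.9 FPKM across the resistant ones (3.34 ± 0.131, adjusted p = 4.5e-08). PLAU, the urokinase gene, fell from 107 ± 11.3 to 20.8 ± 1.62 FPKM (-2.31). ADAM9 (0.11) and CTSD (0.12) did not pass.

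**Figure D4:**
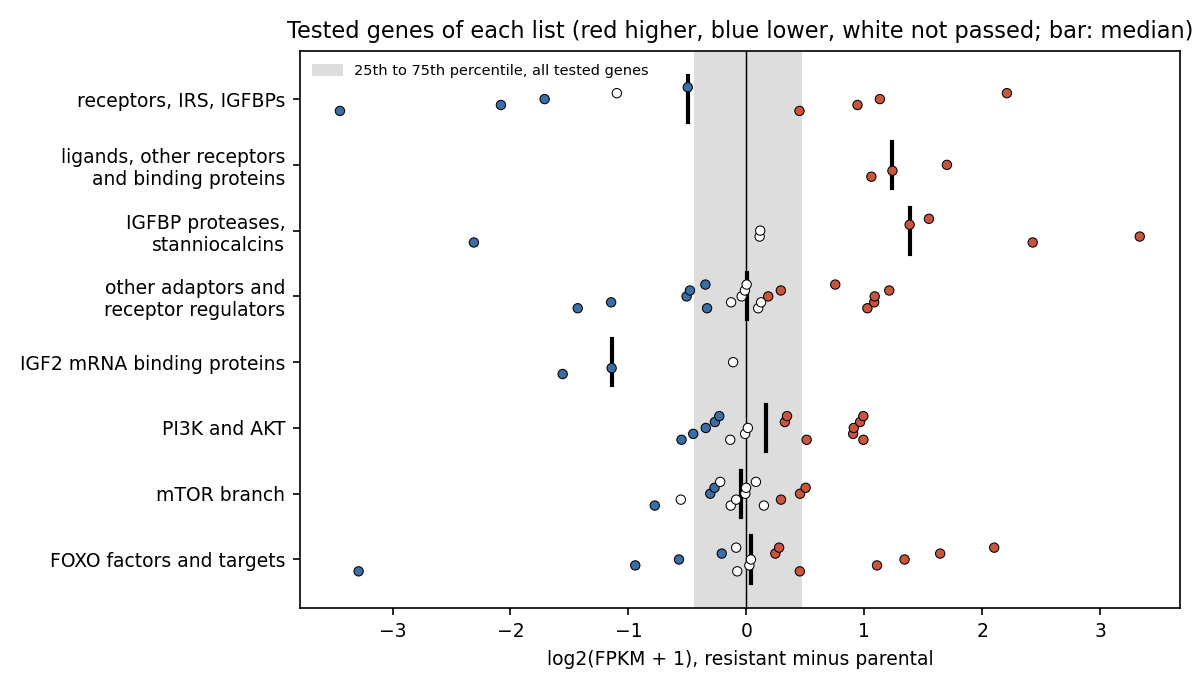
Change on the log2(FPKM + 1) scale of each tested gene in the IGF pathway lists, red for higher, blue for lower and white for not passed, with a bar at each list's median and a grey band from the 25th to the 75th percentile of all tested genes. The IGFBP proteases and stanniocalcins lie mostly to the right of the band, with PLAU far to the left, and most mTOR genes lie inside it.

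At the receptors, 7 of 19 tested adaptors and regulators rose, 6 fell and 6 did not pass, with a median of 0.00. The 68.4% that passed compare with 78.0% of all tested genes. SHC1, the adaptor that links receptors to RAS, rose from 47.9 ± 1.07 to 81.6 ± 6.09 FPKM (0.75), DOK4, an IRS-related docking protein gene, from 1.87 ± 0.294 to 5.66 ± 0.833 FPKM (1.21), and SH2B3 from 4.70 ± 0.346 to 10.6 ± 0.378 FPKM (1.03). GRB10, an inhibitory adaptor of IGF1R and INSR, fell from 40.1 ± 3.08 to 27.9 ± 1.53 FPKM (-0.51), and CAV1, caveolin, from 279 ± 6.67 to 126 ± 8.47 FPKM (-1.15). Of the 3 tested genes among the IGF2 mRNA binding proteins and HMGA2, a known regulator of IGF2BP2, 2 fell and 0 rose. Falls that passed made up 38.1% of all tested genes. IGF2BP2 itself did not pass, at 24.8 ± 1.78 FPKM in parental and 22.8 ± 0.744 FPKM in resistant cells (-0.11). IGF2BP3 went from 33.4 ± 0.421 to 14.6 ± 0.584 FPKM (-1.14) and HMGA2 from 14.4 ± 0.303 to 4.24 ± 0.611 FPKM (-1.56).

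Below the IRS adaptors, 8 of 16 tested PI3K and AKT genes rose, 5 fell and 3 did not pass, with a median of 0.17. The share that passed, 81.25%, is near the 78.0% of all tested genes. AKT1, which encodes an AKT kinase, fell from 85.9 ± 3.55 to 58.4 ± 3.44 FPKM (-0.55). AKT2, the gene of another AKT kinase, did not pass, at 13.1 and 13.0 FPKM in parental and resistant cells (-0.01). The regulatory subunit genes PIK3R2 (19.3 ± 0.127 to 38.6 ± 1.73 FPKM, 0.97) and PIK3R3 (3.22 ± 0.139 to 6.93 ± 0.584 FPKM, 0.91) rose, and so did INPP4B, a phosphatase gene of this pathway, from 3.74 ± 0.298 to 5.76 ± 0.496 FPKM (0.51). Of 14 tested genes of the mTOR branch 3 rose, 3 fell and 8 did not pass, so that 42.9% passed, below the 78.0% of all tested genes. TSC2, the inhibitor of RHEB, rose from 9.09 ± 0.684 to 13.3 ± 0.940 FPKM (0.50), and RHEB, the GTPase that activates mTOR, fell from 126 ± 3.08 to 73.4 ± 7.94 FPKM (-0.78).

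AKT restrains FOXO transcription factors, of which INSR and IRS2 are known targets. Of 15 tested FOXO factors and usual targets 7 rose, 4 fell and 4 did not pass, with a median of 0.04. This is 73.3% passing, near the 78.0% of all tested genes. FOXO4 rose from 1.12 ± 0.0945 to 5.64 ± 0.532 FPKM (1.64), the repressor gene BCL6 from 2.80 ± 0.110 to 15.3 ± 0.270 FPKM (2.10), and CITED2 from 14.1 ± 0.175 to 37.4 ± 2.62 FPKM (1.34). ERBB3, the receptor partner of EGFR, fell from 18.3 ± 2.39 to 0.984 ± 0.324 FPKM (-3.29), and BCL2L11, the gene of the apoptosis inducer BIM, from 8.67 ± 0.790 to 4.03 ± 0.301 FPKM (-0.94).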

How the data were processed

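RNA-seq of 6 libraries was used, 3 parental and 3 resistant, grouped by sample title. The values the authors deposited are FPKM. The submitters' processing notes name the genome build GRCh37, and DESeq with no role. Aligner, quantifier, annotation release and use of strand: not given in the sources used here. Per the file headers the library files also hold a coverage signal per gene, and its commonest ratio to FPKM served as an estimate of mapped gigabases. Every column was mapped to a sample, and the labels name no batch.

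Genes whose mean reached 1 FPKM in at least 1 group were fitted by limma 3.58.1 (R 4.3.3) to log2(FPKM + 1). Group was the sole term, moderation used an intensity trend and was robust, tests were two-sided and the FDR was 0.05. Without read counts, counting error has no interval here. The fit was tested on simulated data. Genes, pathway and marker lists, motifs and the rule for named genes were chosen with earlier results of these data known. The rule names the 10 genes, IGF1, IGF2, IGF2R, IGFBP1, PAPPA, STC1 and STC2. It adds, per pathway list and direction, up to 3 passing genes with the largest changes of 0.5 or more that averaged 5 FPKM or more in either group, and the 3 nearest genes of the largest rise and fall. Other genes were chosen after their values were seen. PIK3R2 and ITGB3 stand on several rows, of which the higher was named. PECAM1 was not analysed here, and 1 gene of the pathway lists is not reported here and was left out of its list. Alternatives covered pseudocount, filter, scaling, moderation, a replicate block and each left-out library.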

Additional observations from a re-analysis of the deposited data

How the results depend on the processing

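The 41 tested genes named by the rule kept their direction and their side of the threshold in 566 of 567 refits in which they were tested. Many of them were named because they passed with large changes in these same libraries, so keeping their side was likely beforehand. The size of the changes depended on the constant added before taking logs. With 0.1 in place of 1, 3 of these genes moved by over 1.5 times, and with 5, 17 did. IGFBP2 (-3.45) went to -4.84 and -1.85, IGFBP4 (-1.71) to -2.78 and -0.69, and PAPPA (1.39) to 3.79 and 0.41. With 5, IRS1 was at -1.26, INSR at 0.65, IRS2 at 0.41 and IGF1R at 0.25. The only gene to change its side was IGFBP3, which passed without trend and robust moderation (-1.10, adjusted p = 0.017) and had adjusted p-values from 0.053 to 0.27 in the other alternatives. Without a filter IGFBP5 was tested too and was higher (0.20, adjusted p = 0.018). With a mean of at least 1 FPKM needed in both groups IGFBP2 and IGFBP4 were not tested, and 6 of 7 genes of the set passed. The count of all genes past the threshold ranged from 8985 to 9261 when 1 library was left out, and 8 genes of the set passed each time. With the replicate number as a block, 9422 genes passed against 9448 without it, and 8 of the set passed. Samples of the same number did not deviate together (correlations of -0.14, 0.08 and 0.10), so the numbers were not taken as pairs. The depth in reads is unknown, which limits what can be said of IGFBP5 and of IGFBP2 and IGFBP4 in resistant cells.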
